A study of Mus musculus with 12 samples.

Results

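The 10 genes described here are genes by which mast cells, basophils and eosinophils are recognised: *Prg2* and *Epx*, *Cpa3*, *Prss34*, *Mcpt4* and *Mcpt8*, *Fcer1a* and *Ms4a2*, *Hdc*, and *Gata2*. They were chosen by symbol, and all 10 were found among the 30743 rows of the deposited table, which has 1 row per gene. The RNA came from whole livers of male C57BL/6J fetuses of CD45.2 C57BL/6 dams, frozen at 15 ± 0.5 dpc. Dams of the Control group (6 fetuses) ate a chow with 13.5 kcal% fat and dams of the high-fat diet (HFD) group (6 fetuses) a diet with 60 kcal% fat, in both cases for 12 to 14 weeks. The labels tie no fetus to its litter. Every value below is the authors' average over all 12 livers as log2 CPM, where CPM is the read count of a gene scaled to the size of the library. A prior count, taken to be 2 reads per library, is part of each CPM unless stated. A gene without reads is thus listed at 0.152 CPM, and low CPM values are raised by it. Read numbers are given without the prior count. The average cannot tell the diets or the livers apart, so no diet comparison is made and no spread between livers is known.

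Mast cells, basophils and eosinophils are granulated cells of the myeloid branch that store their products in granules. Mast cells and basophils bind immunoglobulin E (IgE) through a high-affinity surface receptor and release histamine and proteases when it is crosslinked, whereas eosinophils carry strongly basic proteins and a peroxidase. The fetal liver is the main blood-forming organ of the mid-gestation mouse, so a whole liver holds granulocyte progenitors beside hepatoblasts and erythroblasts.

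The liver label was checked against markers first. *Alb*, serum albumin, stood at 63314 CPM and *Afp*, the fetal serum protein alpha-fetoprotein, at 54525 CPM, and among erythroid genes *Klf1*, an erythroid transcription factor, stood at 692.3 CPM. *Alas2*, which starts heme synthesis in erythroid cells, was nevertheless listed at only 0.704 CPM (87 reads). The average normalized library held 13129748 reads, as worked out from the table's lowest value. At this depth 1 read among all 12 livers was worth 0.00635 CPM. Low values need care, however, because the table also lists genes that every cell uses at or near its lowest value. Of 76 genes for cytosolic ribosomal proteins, 4 (*Rps21*, *Rps25*, *Rps27a* and *Rps28*) were listed at the lowest value and 10 stood at or under 1 CPM, while the highest reached 2441 CPM. *Hnf4a*, a transcription factor that defines hepatocytes, was listed at the lowest value too. A low value in this table is therefore given below as listed, and no fold is taken against it. Why such genes are low was not tested.

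The 10 genes ranged from the table's lowest value, −2.71 log2 CPM, to 7.01 log2 CPM, while the highest gene of the table, *Alb*, reached 15.95. *Prg2*, *Hdc*, *Epx*, *Cpa3* and *Prss34* stood above 1 CPM, *Gata2* stood at 0.803 CPM, *Ms4a2*, *Mcpt4* and *Mcpt8* had between 1 and 6 reads among all 12 livers, and *Fcer1a* was listed at the lowest value. Thus 5 of the 10 (50%) lay above 1 CPM, against 10171 of all 30743 rows (33.1%) and 51.8% of the 19652 rows with reads. Their median, with *Fcer1a* included, was 0.80 on the log2 CPM scale, beside −2.17 over all rows and 0.20 over the rows with reads. In bulk liver, few cells with much RNA for a gene and many cells with little cannot be told apart.

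**Figure D1:**
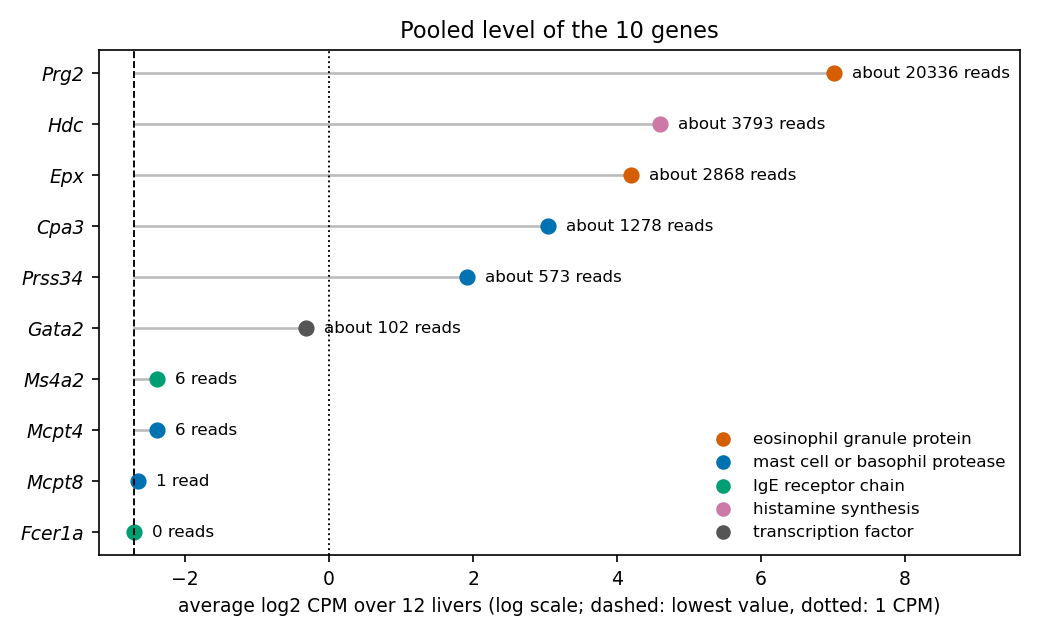
Average log2 CPM over the 12 livers (x axis) for each of the 10 genes (y axis), with points coloured by the role of the gene and the pooled read count beside each point. *Prg2* sits at 7.01, *Hdc*, *Epx*, *Cpa3* and *Prss34* lie between 1.92 and 4.60, and *Ms4a2*, *Mcpt4*, *Mcpt8* and *Fcer1a* lie at or within 6 reads of the lowest value of −2.71, drawn as a dashed line.

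Sequences were read upstream of these genes because a member of the set, *Gata2*, and a gene of the wider lists, *Gata1*, encode factors that bind GATA sites. The motif AGATAA, or its reverse complement TTATCT on the other strand, was looked for in the 250 bases before each RefSeq transcription start (GRCm38.p6). It was picked after the promoters had been read. RefSeq gave 10 windows for 9 of the 10 genes (2 for *Gata2*, none for *Prg2*). The motif stood in 4 of these 10 windows and in 3281 of all 32851 windows of that length (9.99%), and since the motif was picked on these promoters nothing is read from the comparison. The 4 windows are shown because they hold the motif. Both the windows with it and those without it include genes above 1 CPM and genes near the lowest value. Each is printed on the strand of its gene, ending at the base before the start, with the motif in capitals. That of *Cpa3* lies at chr3:20242182-20242431 (− strand), that of *Prss34* at chr17:25298144-25298393 (+ strand), that of *Ms4a2* at chr19:11623720-11623969 (− strand), and that of *Fcer1a* at chr1:173227230-173227479 (− strand).
Cpa3: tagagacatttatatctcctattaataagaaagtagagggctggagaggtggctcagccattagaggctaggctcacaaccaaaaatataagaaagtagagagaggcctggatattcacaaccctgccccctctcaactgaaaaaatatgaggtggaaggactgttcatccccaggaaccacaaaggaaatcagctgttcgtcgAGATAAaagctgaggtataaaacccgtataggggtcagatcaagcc
Prss34: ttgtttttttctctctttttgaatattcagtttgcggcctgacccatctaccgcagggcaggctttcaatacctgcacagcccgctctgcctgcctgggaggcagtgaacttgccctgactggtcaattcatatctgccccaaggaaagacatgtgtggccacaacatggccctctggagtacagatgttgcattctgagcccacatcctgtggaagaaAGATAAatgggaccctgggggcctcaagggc
Ms4a2: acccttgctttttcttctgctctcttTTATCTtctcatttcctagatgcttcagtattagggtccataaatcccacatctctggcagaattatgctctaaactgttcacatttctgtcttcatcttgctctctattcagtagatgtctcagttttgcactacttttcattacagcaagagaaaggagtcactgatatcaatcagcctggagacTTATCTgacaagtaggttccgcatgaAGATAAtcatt
Fcer1a: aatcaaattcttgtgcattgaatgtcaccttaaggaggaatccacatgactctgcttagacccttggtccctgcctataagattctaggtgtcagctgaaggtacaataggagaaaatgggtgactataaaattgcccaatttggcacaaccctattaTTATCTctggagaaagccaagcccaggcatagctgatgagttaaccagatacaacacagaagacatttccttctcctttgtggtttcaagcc

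Counted upstream from the start, the motif began 46 bases before that of *Cpa3* and 31 bases before that of *Prss34*, on the strand of the gene in both. *Ms4a2* carried it 3 times, at 11 bases on the strand of the gene and at 37 and 224 bases on the opposite strand. In *Fcer1a* it began at 92 bases, on the opposite strand. Of the 4 carriers, *Cpa3* and *Prss34* had 1278 and 573 reads, *Ms4a2* had 6, and *Fcer1a* had none listed. The letters were not found in the windows of *Epx*, *Mcpt4*, *Mcpt8*, *Hdc* and *Gata2*, which says only that these 6 bases do not occur there. Other spellings around the letters GATA were not counted. The window of *Mcpt4* holds TGATAA and that of *Hdc* holds TGATAG, so these windows are not without such letters. No binding was measured.

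An eosinophil granule gene, *Prg2*, had the highest level per kilobase of the set. It encodes the major basic protein that forms the core of the eosinophil granule, and lies at chr2:84980461-84983632 (+ strand, mm10, the build of the files). It stood at 7.01 log2 CPM, which is 129.2 CPM or about 20336 reads among all 12 livers (95% exact Poisson interval 20057 to 20618). This interval and those that follow cover counting error only, not the spread between livers. They also leave out the error of working the reads out from an average. With that value *Prg2* lay above 93.7% of the rows with reads and above 87.9% of those over 1 CPM.

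*Epx*, the eosinophil peroxidase, lies at chr11:87864000-87875536 (− strand). Its level was 4.20 log2 CPM, or 18.4 CPM, from about 2868 reads (95% interval 2764 to 2975), above 77.1% of the rows with reads. Reads scale with the length of a transcript, so ratios and orders between genes were taken only per kilobase of exon, and CPM and reads are otherwise given gene by gene. On that scale *Prg2* reached 154.2 CPM per kilobase and *Epx* 6.71, a ratio of 23.0, or 22.6 with the longest transcript in place of all exons. The counting intervals do not cover errors particular to a gene. Ribosomal protein genes above 1 CPM also lay far apart, such as *Rps18* at 4.02 CPM and *Rpl4* at 2441 CPM. How far this limit reaches into the ratios and orders between genes, here and below, was not tested.

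The other eosinophil genes, a list of 9 that includes *Prg2* and *Epx*, ranged from 2 reads to the 129.2 CPM of *Prg2*. 6 of the 9 lay above 1 CPM and none was listed at the lowest value. *Ear1*, an eosinophil-associated ribonuclease, came after *Prg2* per kilobase with 19.5 CPM per kilobase (14.2 CPM). Since the *Ear* genes are close copies of each other, reads may have been split among them, and *Ear1*, *Ear2* (1.65 CPM) and *Ear6* (2.41 CPM) are uncertain as single genes. *Prg3*, which encodes a homologue of major basic protein and begins 7.75 kb downstream of the start of *Prg2*, stood at 2.96 CPM. Per kilobase the level of *Prg2* was 49.4 times that of *Prg3*. The receptors by which mature eosinophils are usually gated were listed low: *Ccr3*, the eotaxin receptor, at 0.660 CPM, *Il5ra*, the interleukin-5 receptor alpha chain, with 3 reads, and Siglec-F, listed under its other symbol *Siglec5*, with 2 reads. These values fall under the limit given for the ribosomal protein genes. They were not read as absence or as a stage of eosinophils.

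*Epx* shares a stretch of chromosome 11 with the genes of a pair of related peroxidases. *Mpo*, the myeloperoxidase of neutrophil and monocyte precursors, starts 82.0 kb from the start of *Epx* and stood at 758.6 CPM, while *Lpo*, lactoperoxidase, starts 47.2 kb away and stood at 0.482 CPM. Per kilobase, the level of *Mpo* was 33.0 times that of *Epx* (40.4 times with the longest transcript). Of the 7 protein-coding neighbours of *Epx* within 100 kb, 3 lay above 1 CPM and 3 olfactory receptor genes were listed at the lowest value.

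Among the proteases of the set, *Cpa3* and *Prss34* stood above 1 CPM, and the 2 members at the chymase locus had a few reads. *Cpa3* encodes the carboxypeptidase A3 stored in mast cell granules and made by basophils and their progenitors (chr3:20215620-20242181, − strand). It stood at 3.05 log2 CPM, or 8.26 CPM, from about 1278 reads (95% interval 1209 to 1350). *Prss34* encodes the mast cell protease 11, a tryptase of basophils (chr17:25298394-25300165, + strand). It stood at 1.92 log2 CPM, or 3.79 CPM, from about 573 reads (95% interval 527 to 622). Per kilobase, *Cpa3* at 5.45 CPM was 1.75 times *Prss34* at 3.10 CPM (1.84 times with the longest transcript). The counting intervals above are of reads, not of levels per kilobase, and hold no spread between livers.

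*Mcpt4* and *Mcpt8* were at the other end. *Mcpt4*, a chymase of connective tissue mast cells (chr14:56059629-56062313, − strand), had 6 reads among all 12 livers (95% interval 2.20 to 13.1). *Mcpt8*, a granule protease often used as a basophil marker (chr14:56082166-56085273, − strand), had 1 read (95% interval 0.0253 to 5.57). They are listed at −2.39 and −2.66 log2 CPM, next to the lowest value of −2.71.

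*Mcpt8* and *Mcpt4* lie 23.0 kb apart, start to start, in a cluster of serine protease genes on chromosome 14. Their neighbours *Mcpt1*, *Mcpt9* and *Mcpt2*, all mast cell proteases, had 5, 11 and 42 reads. *Cma1*, also on the protease list and on chromosome 14 but more than 100 kb away, had 75 reads (0.626 CPM). Genes of such a cluster can be alike, and whether reads were split among them was not tested. *Ctsg*, which encodes the cathepsin G of neutrophil granules and starts 17.3 kb from *Mcpt8*, stood at 81.3 CPM. It was the only 1 of the 9 protein-coding neighbours of *Mcpt8* within 100 kb above 1 CPM, and 3 granzyme genes of the 9 were listed at the lowest value.

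The tryptase cluster on chromosome 17 gave a different picture. There *Prss34*, with 573 reads, stood among other tryptase genes. *Prss28*, *Prss29* and *Tpsab1* beside it were listed at the lowest value, *Tpsb2*, a tryptase of connective tissue mast cells, stood at 0.713 CPM, and *Tpsg1* had 22 reads. In all, the list of 10 mast cell and basophil proteases held 2 genes above 1 CPM, namely *Cpa3* and *Prss34*, and had a median of −1.71 log2 CPM. *Tpsab1* was its only gene listed at the lowest value. Unlike the other genes of this list, *Tpsab1* has 0 RefSeq mRNAs, and its value was not read as absence.

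**Figure D2:**
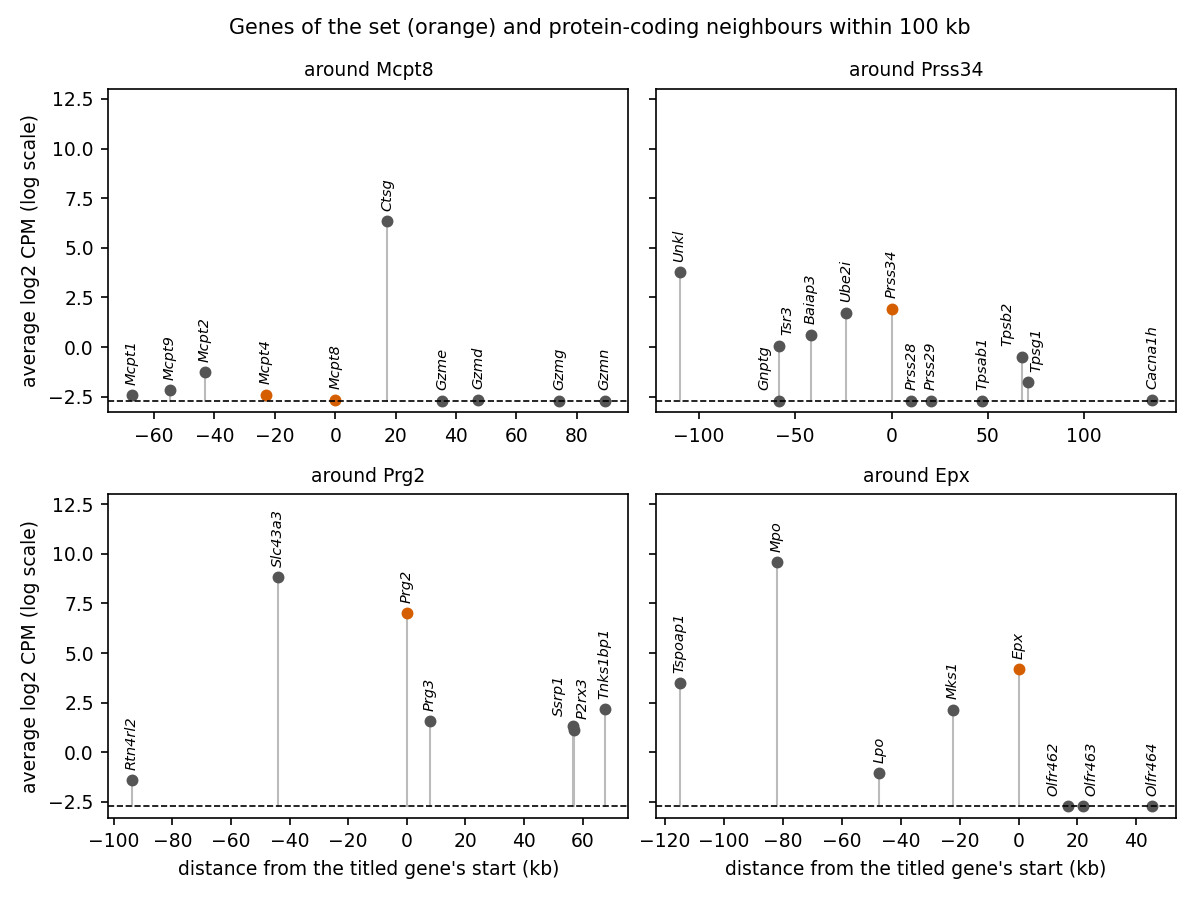
Average log2 CPM over the 12 livers (y axis) of protein-coding genes within 100 kb of *Mcpt8*, *Prss34*, *Prg2* and *Epx*, against the distance between gene starts in kilobases (x axis), with genes of the set in orange and the lowest value dashed. *Ctsg* at 81.3 CPM stands alone above 1 CPM around *Mcpt8*, and around *Prss34*, at 3.79 CPM, the tryptase gene *Tpsb2* lies at 0.713 CPM.

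The IgE receptor is built of an alpha chain that binds IgE, a beta chain that amplifies the signal and a shared gamma chain. The 2 chains in the set were listed at or near the lowest value. *Fcer1a*, the alpha chain (chr1:173221284-173227214, − strand), was listed at the lowest value. Taken as it stands, a count of 0 among all 12 livers allows a level of up to 0.0190 CPM (3 reads, a 1-sided limit), for counting error only. The 95% interval used for the other genes would reach 3.69 reads. *Ms4a2*, the beta chain (chr19:11615523-11623719, − strand), had 6 reads (95% interval 2.20 to 13.1). *Fcer1g*, the gamma chain, stood at 61.9 CPM. Since that chain also serves the IgG and other receptors of macrophages, neutrophils and platelets, it is not particular to mast cells and basophils.

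Neighbours of the receptor genes were likewise mostly low. All 6 protein-coding neighbours of *Fcer1a* within 100 kb, 5 of them olfactory receptor genes, were listed at the lowest value. Around *Ms4a2*, 2 of 7 lay above 1 CPM, among them *Ms4a6d* at 10.1 CPM, and *Ms4a3*, which marks granulocyte and monocyte progenitors, stood at 0.885 CPM. The kinases *Lyn* and *Syk*, which pass on the signal of the receptor, had 42 and 21 reads. Since both kinases act in many blood cells, their low values fall under the limit given for the ribosomal protein genes, and were not read as absence.

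*Hdc* encodes the histidine decarboxylase that makes histamine (chr2:126593667-126619299, − strand). It stood at 4.60 log2 CPM, or 24.2 CPM, from about 3793 reads (95% interval 3673 to 3916), above 79.3% of the rows with reads. Its exons are long, and per kilobase it came after *Epx* and *Cpa3* with 3.79 CPM. The ratio of *Hdc* to *Epx* per kilobase was 0.565, or 0.785 with the longest transcript, and the order held under both lengths. Its neighbour *Slc27a2*, a fatty acid transporter of hepatocytes, starts 66.9 kb away and stood at 265.8 CPM.

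*Hdc* belongs to the list of genes for amines and lipid mediators. 4 of its 6 genes lay above 1 CPM, with a median of 3.57 log2 CPM. *Srgn*, the core protein of the granule proteoglycan, was highest per kilobase, with 46.3 CPM per kilobase (101.6 CPM). *Hpgds*, a prostaglandin D2 synthase, stood at 14.1 CPM, and *Alox5*, the 5-lipoxygenase that starts leukotriene synthesis, at 10.0 CPM. *Slc18a2*, which loads histamine into granules, had 14 reads and *Ltc4s*, leukotriene C4 synthase, was listed at the lowest value. These genes are shared with other blood cells, as *Srgn* and *Alox5* are with neutrophils.

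*Gata2* encodes a transcription factor of stem cells, mast cells and basophils (chr6:88193891-88207032, + strand). It stood at −0.32 log2 CPM, or 0.803 CPM, from about 102 reads (95% interval 83.2 to 124), above 45.2% of the rows with reads. With the prior count that is part of the deposited value (2 reads per library) taken off, its level was 0.650 CPM, also under 1 CPM. *Gata1*, its relative in erythroid cells, megakaryocytes, mast cells and eosinophils, stood at 367.1 CPM. *Cebpa*, a factor of the granulocyte lineage and of hepatocytes, stood at 179.2 CPM, and *Cebpe*, a factor of late granulocyte maturation, at 17.8 CPM. *Mitf*, a factor mast cells require, had 1 read, and 4 of the 7 genes on the list of regulators lay above 1 CPM.

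Per kilobase of exon, the 5 genes of the set above 1 CPM followed in the order *Prg2*, *Epx*, *Cpa3*, *Hdc* and *Prss34*, from 154.2 down to 3.10 CPM per kilobase. The order was the same with the longest transcript. *Epx* and *Cpa3* were close, with a ratio of 1.23. With the longest transcript *Cpa3* and *Hdc* were close as well, at 5.70 and 5.36 CPM per kilobase. Whether the order of *Cpa3* and *Hdc* goes beyond counting error was not tested. Whether neighbours in this order differ beyond the spread between livers cannot be said from a pooled value.

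**Figure D3:**
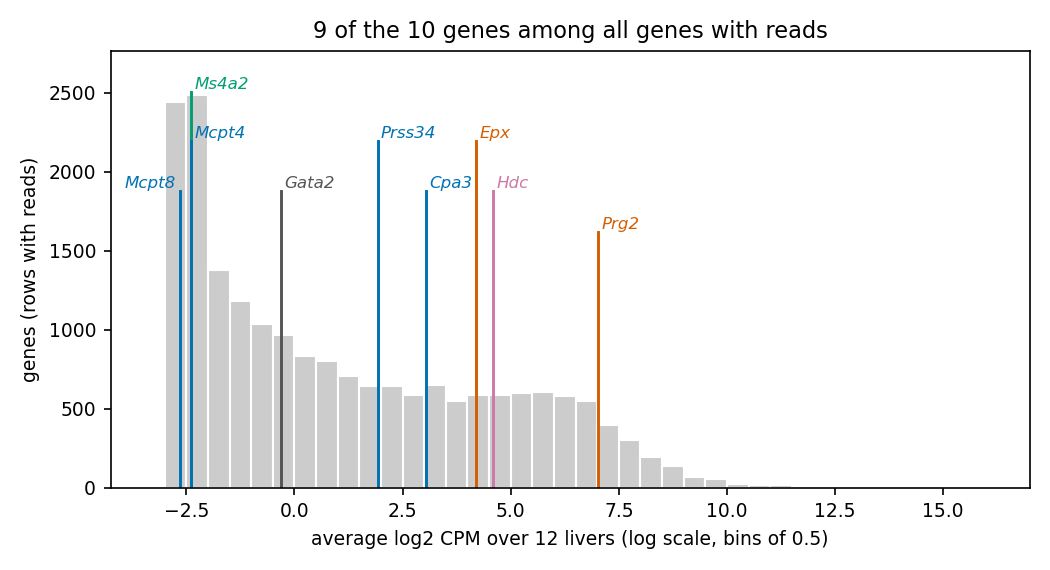
Number of genes (y axis) by average log2 CPM over the 12 livers (x axis, bins of 0.5) for the 19652 rows with reads, with a vertical line for each of the 9 genes of the set that had reads; line heights only separate the names. *Prg2* lies above 93.7% of these rows, *Hdc* above 79.3%, *Epx* above 77.1%, *Cpa3* above 70.1% and *Prss34* above 62.9%, while *Mcpt8* lies near the bottom.

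The wider set of mast cell, basophil and eosinophil genes comprised 7 lists with 50 genes, the 10 included. Of the 50, 19 (38%) lay above 1 CPM and 5 were listed at the lowest value, with a median of −1.15 log2 CPM. Without the 10 genes, 14 of 40 (35%) lay above 1 CPM. This is close to the 33.1% of all rows, so a share of that size is not particular to these lists. It is under the 51.8% of the rows with reads, a base that leaves out genes at the lowest value, of which these 40 hold 4.

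The median of the surface genes was −1.30 log2 CPM and that of the type 2 cytokines −2.36, without regard to length. Of 9 surface genes, 2 lay above 1 CPM: *Itga2*, the alpha 2 integrin recognised by the basophil antibody DX5 and present on platelets, at 7.76 CPM, and *Cd63*, a granule membrane protein, at 1.34 CPM. *Kit*, the stem cell factor receptor of mast cells and of blood progenitors, had 1 read, and *Mrgprb2*, a receptor of connective tissue mast cells, was listed at the lowest value. Since *Kit* also marks the progenitors that fill the fetal liver, its value was not read as absence. None of the 4 cytokine genes reached 1 CPM, with *Il4* at 20 reads, *Il13* at 2 and *Il5* at the lowest value.

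Of the 38 genes found on the lists of other blood and liver cells, 28 (73.7%) lay above 1 CPM, with a median of 3.90 log2 CPM. These counts and medians take no account of length. The granule genes of neutrophils were above 1 CPM without exception among those listed, the 4 primary granule genes with a median of 6.57 and the 5 late granule genes with a median of 7.25 log2 CPM. Per kilobase, *Mpo* (758.6 CPM) and *Elane*, neutrophil elastase (111.7 CPM), led the former, and *Ngp*, neutrophilic granule protein (287.5 CPM), and *Camp*, cathelicidin (152.3 CPM), the latter. Neutrophils share precursors and many granule genes with eosinophils and basophils, so *Prg2* and *Epx* stood in a liver in which all 9 neutrophil granule genes lay above 1 CPM, and the part of neutrophil precursors in their values was not tested.

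For the remaining lists, 4 of 5 megakaryocyte genes lay above 1 CPM, with *Ppbp* at 251.1 CPM and *Pf4* at 149.8 CPM, both chemokines of platelet granules. Of the macrophage genes 2 of 5 did, with *C1qa*, a complement subunit, at 82.6 CPM and *Vsig4* at 2.23 CPM, while *Adgre1*, which encodes F4/80, was listed at the lowest value under its older symbol. 3 of 5 B lineage genes lay above 1 CPM, led per kilobase by *Cd79b*, a B cell receptor chain, at 14.3 CPM and *Vpreb1*, a surrogate light chain, at 4.72 CPM. So did 3 of 5 stem and progenitor genes, led per kilobase by *Flt3*, a receptor of multipotent progenitors, at 9.86 CPM and *Hlf*, a stem cell transcription factor, at 1.53 CPM. 3 of the 4 erythroid genes found (*Hba-a1* was not analysed here) and 4 of 5 hepatocyte genes were above 1 CPM as well.

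**Figure D4:**
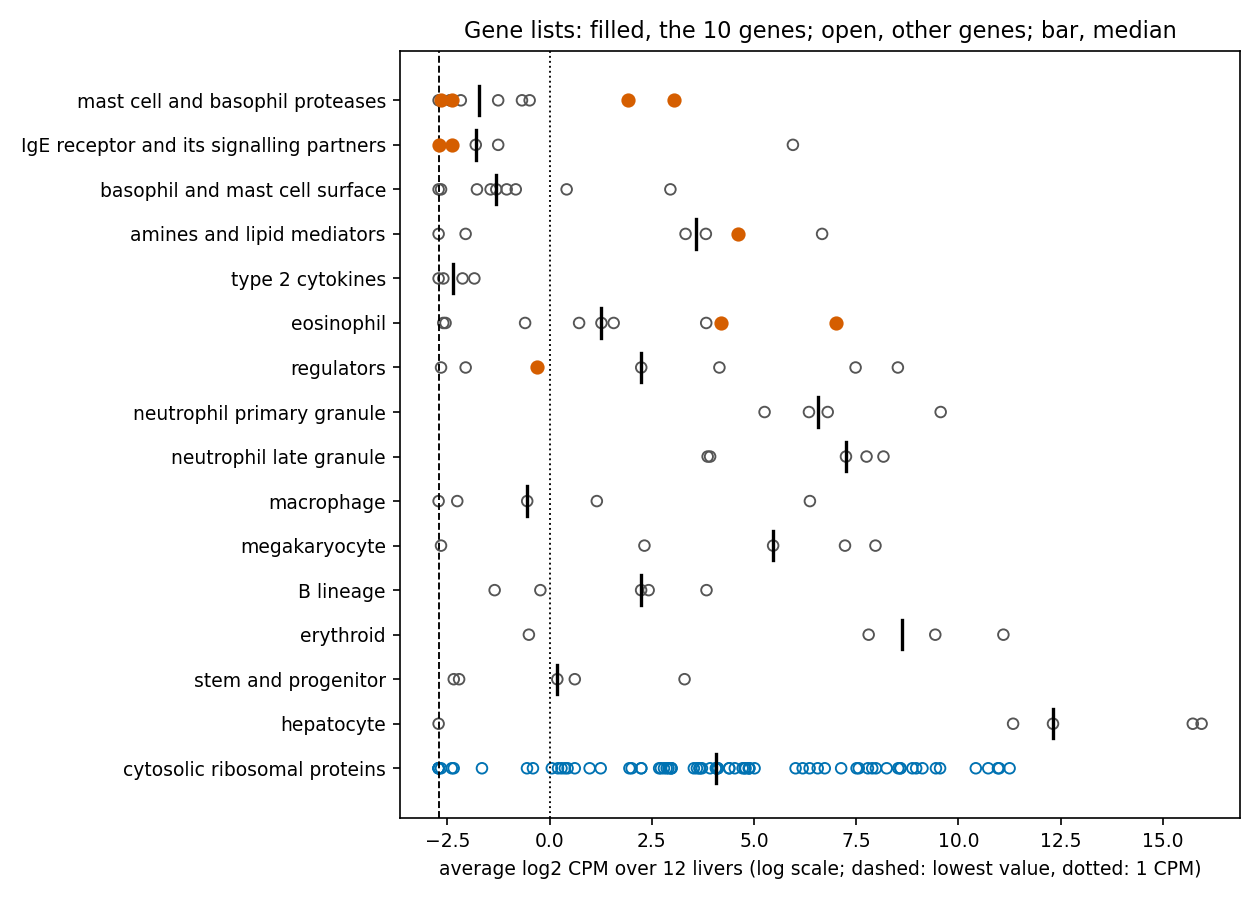
Average log2 CPM over the 12 livers (x axis) of every gene on each list (y axis), with the 10 genes filled, other genes open and the median of a list as a bar. The 2 neutrophil lists lie wholly above 1 CPM (dotted line), the protease and IgE receptor lists have medians under it, and ribosomal protein genes reach from the lowest value (dashed line) to 2441 CPM.

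The ribosomal protein genes were also split by the number of RefSeq mRNAs per gene, since the members differ in it. Those with 1 mRNA (58 genes) had 4 genes at or under 1 CPM, and those with 2 or more (18 genes) had 6. In the set, *Ms4a2* has 4 RefSeq mRNAs and *Gata2* has 2, and *Prg2*, *Hdc*, *Epx*, *Cpa3*, *Prss34*, *Mcpt4*, *Mcpt8* and *Fcer1a* have 1 each. The part of this in the values of *Ms4a2* and *Gata2* was not tested. The ribosomal list and this split were chosen after the values had been seen.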

How the data were processed

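Poly(A)-selected RNA of 12 whole fetal livers (6 Control, 6 HFD) was sequenced on a HiSeq 2000 from TruSeq v2 libraries. According to their methods and the submitters' processing notes, the authors checked reads with FastQC, trimmed them with cutadapt 1.2.1, used Subread 1.3.6-p1 for alignment to mm10 and biomaRt for annotation, and compared the groups with edgeR. The tool that counted reads per gene and its strand setting are not given in the sources used here. The authors deposited 1 table of that comparison. Its fold changes, p-values and adjusted p-values, with a common and a tagwise dispersion, were not used. Only the average log2 CPM that the authors deposited beside them was used, as their mean over all 12 livers. No values of single livers were used, so the planned test of diet, and its alternatives, were not run.

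The lowest value (−2.71, held by 11091 rows) was taken as that of a gene without reads, and a prior count of 2 per library then gave the average library size and the pooled reads of each gene. Of 4222 rows with 1 to 10 reads, 99.7% came out whole within 0.1 reads. This step was also run on simulated data made with the same prior count. There the error in the reads of genes with many reads had a median of 0.358% and a 95th percentile of 1.07%. Such data check the arithmetic only, not whether that prior count is the one behind the deposited values. Exact Poisson intervals (95%) treat the reads as 1 pooled sample. PCR duplicates carry no identifiers, so intervals and the limit of 3 counts cover counting error only. Exon lengths (union, or longest transcript) and neighbours within 100 kb came from GENCODE M21 (GRCm38), and promoters from RefSeq.

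Named genes were all 10 members and, per list, the 2 highest per kilobase and those at the lowest value or not found. Other genes of the lists (such as *Kit*, *Slc18a2* and *Alas2*) and neighbours were named after their values were seen, where a member or a limit is described by them. A gene that the rule names among the erythroid ones is not reported here. The members and lists were chosen with earlier results of these data known. The ribosomal list, the neighbours and the motif were chosen after values or sequences were seen. Computations used scipy 1.17.1, pandas 2.3.3, matplotlib 3.10.9 and numpy 2.4.6 under Python 3.11.15.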

Additional observations from a re-analysis of the deposited data

How the results depend on the processing

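Under a threshold of 5 CPM in place of 1 CPM, 13 of the 50 genes of mast cells, basophils and eosinophils and 23 of the 38 of other cells passed. A threshold of 0.1 CPM passed all 50 and all 38, because it lies under the lowest value of the table (0.152 CPM). With the prior count taken off first, an alternative chosen after seeing the data, 32 of the 50 and 32 of the 38 were above 0.1 CPM. The number of the 10 genes above 1 CPM was 5 with and without the prior count. Taking it off left *Prg2*, *Hdc*, *Epx*, *Cpa3* and *Prss34* within their counting intervals, and brought *Ms4a2* to 0.0384 CPM, *Mcpt4* to 0.0379 CPM and *Mcpt8* to 0.00631 CPM, so the values of these 3 as deposited are mostly prior count. *Mcpt4* and *Ms4a2* had 6 reads each, *Mcpt8* had 1 and *Fcer1a* had none listed, so a change of several reads among all livers could not be judged here. Why these 4 are low was not tested. No paired analysis was possible because the value used is 1 average over all livers. For the same reason the alternatives of the diet test (DESeq2, size factors, no filter, pseudocounts, leaving out each liver, a block by title number) were not run.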
